A study of Mus musculus with 12 samples.

Results

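RNA of type B spermatogonia was compared with RNA of type A spermatogonia, the mitotic germ cells of the mouse testis, on 3 Affymetrix array designs whose gene content overlaps in part, named U74Av2, U74Bv2 and U74Cv2. The comparison used the 6 arrays labelled with these 2 cell types, of 12 arrays in the series, with 1 array per cell type and design; the other 6 held pachytene spermatocytes and round spermatids. All groups were total RNA of an isolated cell type, and the labels call each array a single sample and give no strain, genotype, age or isolation method. Every probe set that was not a control entered, 36701 in all, and a ratio was always taken between the 2 arrays of 1 design. Of 15964 genes named on the designs, 11720 (73.4%) were measured, that is, had a probe set whose signal in type A or type B exceeded the highest of the 19 negative controls (sequences of other organisms) on either array of the design. That floor was 32.7 signal units on U74Av2, 62.4 on U74Bv2 and 103.5 on U74Cv2. Signals under it were set to it, and a ratio to such a signal is given as at least so many fold.

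Type A spermatogonia comprise the stem cells of the testis and the generations of dividing cells that follow them. Retinoic acid and the receptor tyrosine kinase KIT with its ligand drive the later type A cells through further divisions, and type B spermatogonia are the last generation before the cells enter meiosis. Stem and progenitor cells are known for the transcription factor ZBTB16 and for the growth factor GDNF with its receptor, later cells for KIT, and DMRT1 is a transcription factor that keeps spermatogonia in mitosis.

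The 3 genes fixed as markers of spermatogonia were measured in both cell types, and each was lower in type B. Zbtb16 read 670 in type A and 268 in type B on U74Av2 (2.50-fold lower), and 411 and 253 on U74Cv2 (1.62-fold lower). Kit read 385 and 202 (1.91-fold lower), and Dmrt1 1195 and 659 (1.81-fold lower), each from 1 probe set of U74Av2. In pachytene spermatocytes and round spermatids the same probe sets read 41.5 and 39.0 for Zbtb16, 40.6 and 77.9 for Kit, and 61.2 and 129 for Dmrt1. Both labelled spermatogonia thus lay above the later germ cells for all 3 markers. Dmrt1 was also a member of the list of Sertoli cell genes read below. Kit, a gene of the later spermatogonia, was not higher in the array labelled type B. With 1 array a side, none of these differences comes with an error between replicates, and no test was made. In bulk RNA, fewer cells of a type and less RNA per cell cannot be told apart.

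The profiles lay close together. The median log2 ratio of type B over type A over the measured genes was 0.02 (quartiles -0.34 and 0.36), and 8621 genes (73.6%) were within 1.5-fold. A ratio of 2-fold or more toward type B was found for 417 genes (3.56% of 11720) and toward type A for 383 (3.27%), of which 98 and 106 were bounds against the floor. The balance differed between designs. Of 5052 genes represented by a probe set of U74Av2, 221 were higher and 119 lower. The numbers were 127 and 132 of 4331 on U74Bv2, and 69 and 132 of 2337 on U74Cv2. Over all designs the higher genes made up 52.1% of the calls, and 1.04% under a scaling by the spike-in controls (BioB, BioC, BioDn and Cre transcripts), which also lay apart between the arrays. A 4-fold difference was reached by 14 genes in the higher and 11 in the lower direction. As a technical yardstick, each of 24 control probe sets present on the 3 designs gave 3 log2 ratios, and their pooled SD was 0.25. Probe sets of the same gene varied more, since 13.1% of 3860 pairs on the same design and 15.7% of 4783 pairs on different designs were over 2-fold apart in their ratios.

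For that reason the genes described first are those whose probe sets agreed. Of 4100 genes with at least 2 measured probe sets, 65 were higher in type B by agreeing probe sets (1.59%) and 105 lower (2.56%). These have 1 probe set at least 2-fold and another at least 1.5-fold in that direction, and none 1.5-fold in the other. The supporting probe sets lay on at least 2 designs, that is on separate hybridisations, for 32 of the 65 and 68 of the 105. Every measured probe set was at least 1.5-fold in the one direction for 46 and 51 genes, and at least 2-fold for 11 and 8. Agreement did not follow from a large ratio of the leading probe set, the one with the highest mean signal. Of 133 genes with at least 2 measured probe sets whose leading one was 2-fold higher, 33 agreed, and of 157 that were 2-fold lower, 48. In 15 genes 1 probe set was 2-fold higher and another 2-fold lower, among them Sall4, Ankrd11, Ikbkb and Elf4.

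**Figure D1:**
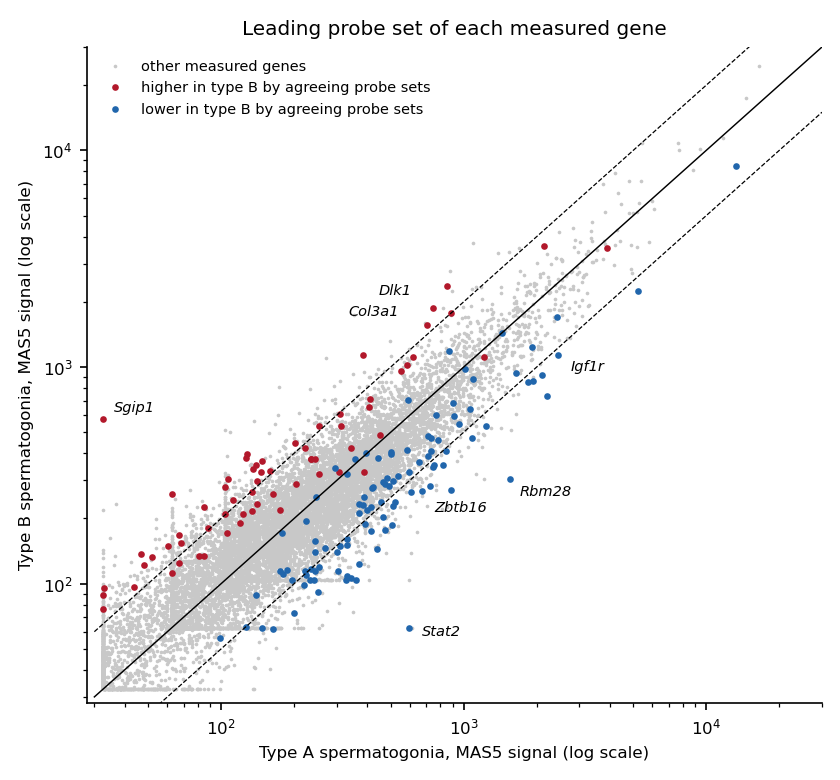
Signal of the leading probe set of each measured gene in type A (horizontal, log scale) and type B spermatogonia (vertical, log scale), with signals under the floor drawn at the floor of their design; the solid line marks equality and the dashed lines 2-fold. The 65 genes higher (red) and 105 lower (blue) by agreeing probe sets are marked, and some lie inside the dashed lines because another probe set than the leading one passed 2-fold.

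Genes higher in type B by agreeing probe sets were led by Sgip1, which encodes an adaptor of clathrin endocytosis. Sgip1 read 8.5 in type A, under the floor, and 577 in type B on U74Av2 (at least 17.7-fold higher), while its probe set on U74Bv2 read 51.6 and 114 (at least 1.82-fold). The sizes of these ratios differ widely and the first comes from a probe set shared among transcripts (ending _s_at). Rab3a, a small GTPase of vesicle secretion, read 34.5 and 157 on U74Av2 (4.55-fold higher) and 201 and 448 on U74Cv2 (2.23-fold). Hspb2, a small heat shock protein, read 102 and 238 on U74Av2 (2.33-fold) and 127 and 397 on U74Cv2 (3.12-fold). Both genes were thus over 2-fold higher on separate hybridisations with every signal above the floor. The type A signals of Rab3a on U74Av2 (34.5) and Hspb2 on U74Cv2 (127) were close to the floors of 32.7 and 103.5. The sizes of those ratios are therefore uncertain.

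Anxa1, which encodes a calcium-dependent phospholipid-binding protein, had 3 probe sets on U74Av2. They read 147 and 370, 66.5 and 219.6, and 16 and 59.6 in type A and type B, or 2.52-fold, 3.30-fold and at least 1.82-fold higher. Glipr2 read 57.2 and 181 on U74Av2 (3.16-fold) and 617 and 1108 on U74Cv2 (1.79-fold). Angptl7, a secreted angiopoietin-like protein, read 69.3 and 232 on U74Bv2 (3.35-fold) and 134 and 265 on U74Cv2 (1.97-fold). Mrpl41, a protein of the mitochondrial ribosome, read 72.0 and 131 on U74Av2 (1.82-fold) and 127 and 381 on U74Cv2 (3.01-fold). Anxa1, Glipr2, Angptl7 and Mrpl41 were each higher in type B on all of their measured probe sets, with unequal sizes.

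The remaining leading genes were Prp2, Uap1l1, Cdiptos, Snx17 (a sorting nexin), Fcgbp, Kdelr3 (a receptor that returns proteins to the endoplasmic reticulum), Pdlim1 (an actin-associated adaptor) and Cadm3 (an adhesion molecule). Their mean log2 ratios over measured probe sets were at most 1.46, for Prp2. Fcgbp and Cadm3 were under the floor in type A on both of their probe sets, so their ratios are bounds. Pdlim1 read 51.7 and 132, and 53.1 and 111, on U74Av2. Further down the list, named here after their values were seen, stood the collagen gene Col3a1, with 3 probe sets 2.12-fold to 2.44-fold higher, Bgn, Vcam1, Cd34, Dlk1, Cxcl1 and Cxcl12.

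Genes lower in type B by agreeing probe sets were led by Stat2, Pla2g6 and Cwc22. Stat2, a transcription factor of interferon signalling, had both probe sets on U74Bv2, and they read 595 and 51.1 (at least 9.53-fold lower) and 189.8 and 99.3 (1.91-fold lower), so its direction rests on 1 pair of arrays. Pla2g6, a calcium-independent phospholipase A2, read 146 and 49.2 on U74Av2 (2.97-fold lower) and 505 and 187 on U74Bv2 (2.70-fold). Cwc22, a splicing factor, read 91.8 and 42.0 on U74Av2 (2.19-fold) and 342 and 107 on U74Cv2 (3.21-fold). Scara5, a receptor that takes up ferritin, read 757 and 351 on U74Bv2 (2.16-fold) and 494 and 160.3 on U74Cv2 (3.08-fold). Pla2g6, Cwc22 and Scara5 were each over 2-fold lower on 2 designs with all signals above the floor. The type B signals of Cwc22 were close to the floors, 42.0 against 32.7 and 107 against 103.5.

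Arid1a, a subunit of the BAF chromatin remodeller, read 845 and 410.5, and 109.6 and 37.8, in type A and type B on U74Av2 (2.06-fold and 2.90-fold lower). Stil, needed to duplicate centrioles, read 90.7 and 49.0 on U74Av2 (1.85-fold) and 329.7 and 109 on U74Cv2 (3.03-fold). Ccnt2, a cyclin of the elongation kinase P-TEFb, had 3 probe sets on U74Bv2 that were 2.74-fold, 2.12-fold and at least 1.61-fold lower. Srpk2, a kinase of splicing factors, was 1.87-fold lower on U74Av2 and 2.75-fold on U74Bv2. All 4 genes were lower on each of their measured probe sets.

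Ctnnal1, an alpha-catenin-like protein, was the one among the 15 leading genes with support on 3 designs: it read 57.0 and 35.6 on U74Av2 (1.60-fold lower), 467 and 204 on U74Bv2 (2.29-fold) and 456 and 172 on U74Cv2 (2.65-fold). Tmem184a had the highest signals of the group, 5239 and 2247 (2.33-fold) and 2597 and 1272 (2.04-fold), both on U74Cv2. Agps, an enzyme of ether lipid synthesis, was under the floor in type B on 3 probe sets, and at least 3.46-fold, 2.44-fold and 1.61-fold lower. Ralgapa2, Pcsk6, Ccdc6 and Dusp15 had mean log2 ratios between -1.36 and -1.09. Zbtb16 itself stood in the longer list of 105. Also there, named after their values were seen, were Igf1r, the receptor of insulin-like growth factor 1, at 2454 and 1140 (2.15-fold lower), the X-linked chromatin gene Atrx at 243 and 115 (2.12-fold), and the ubiquitin ligase gene Trim71 at 729.9 and 409 (1.79-fold). Rara, which encodes a receptor for retinoic acid, agreed by rule through probe sets at least 2.06-fold and 3.83-fold lower, while its leading probe set read 1011 and 984.

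**Figure D2:**
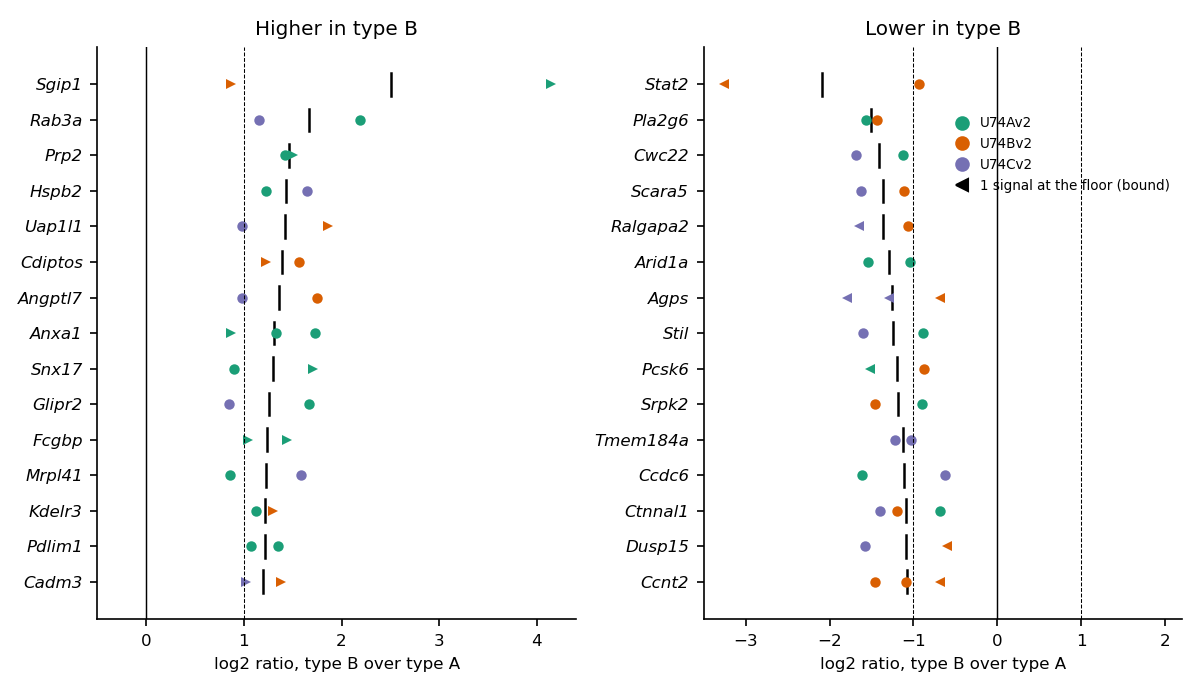
Log2 ratio of type B over type A for every measured probe set (points, coloured by array design) of the 15 leading genes by agreeing probe sets in each direction; black ticks mark the mean over probe sets, triangles mark bounds, and dashed lines 2-fold. Each gene lies on 1 side of 0, while the distance between its probe sets runs from under 0.1 (Prp2) to over 3 (Sgip1).

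Levels in the later germ cells were set beside these. Over the 65 genes higher in type B, the median signal of the leading probe set was 140.5 in type A, 326 in type B, 103 in pachytene spermatocytes and 87.6 in round spermatids, and 16 (24.6%) were under the floor in both later cell types, against 17.2% of all measured genes. Over the 105 lower genes the medians were 465, 268, 202 and 122, and 17 (16.2%) were under the floor in both. Col3a1 (leading probe set 708, 1570, 21.8 and 22.4 in this order of cell types), Anxa1 (147, 370, 5.50 and 61.3) and Glipr2 (617, 1108, 103 and 87.6) were highest in type B and lowest in the 2 later cell types. Among the lower genes, Ctnnal1 and Tmem184a were highest in type A and lower at each following cell type. Pla2g6 (505, 187, 3586 and 4498) and Dusp15 (369, 123, 725 and 1351) had their lowest signal in type B and their highest in round spermatids.

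**Figure D3:**
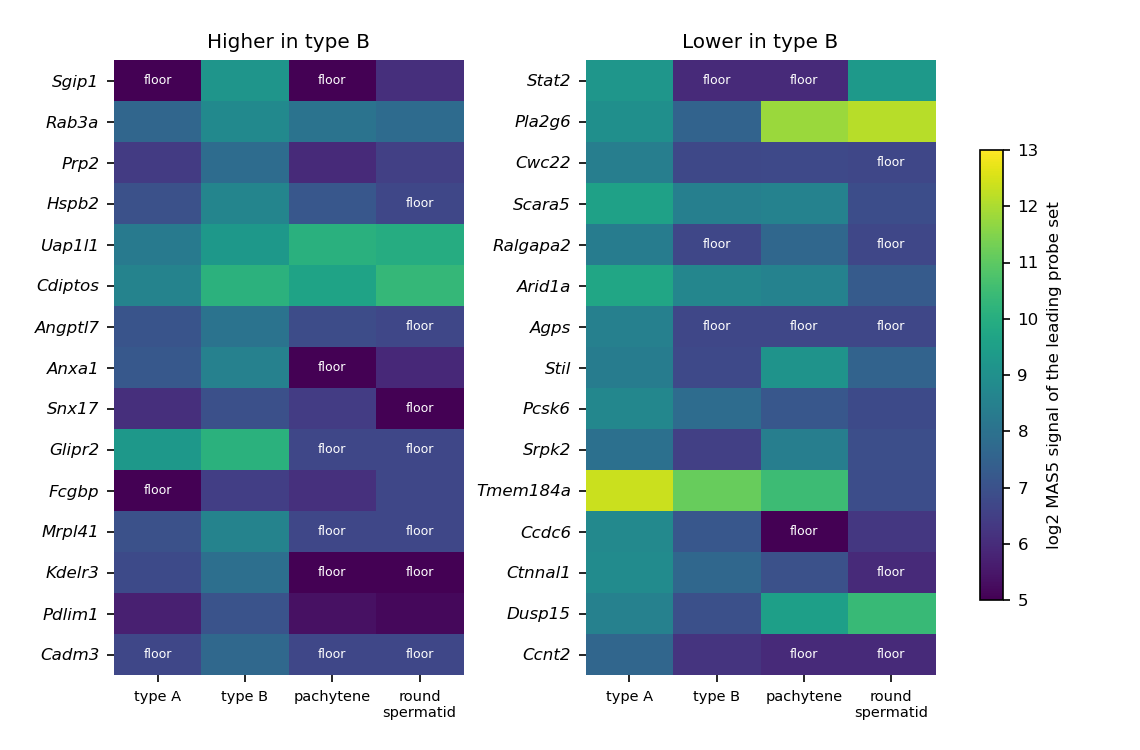
Log2 signal of the leading probe set (colour) of the 15 leading genes higher (left) and lower (right) in type B by agreeing probe sets, in the 4 germ cell types (type A, type B, pachytene, round spermatid), 1 array each; "floor" marks signals at or under the floor of the 2 spermatogonia arrays. Pla2g6 and Dusp15 are brightest in the later cells, and Tmem184a and Ctnnal1 dim from left to right.

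Genes with 1 measured probe set have no such check and are given by size. Among those with both signals above the floor, 1110032A03Rik was 6.36-fold higher in type B (36.8 and 234), Gm10125 4.90-fold (353 and 1732), the cytokine gene Lta 4.66-fold (34.9 and 163) and Itm2a, an X-linked membrane protein gene, 4.65-fold (174 and 807). Cyp20a1, Lum, Postn, Icam1, Pigp and Fam83h were between 3.37-fold and 4.07-fold higher. In the other direction Cit, the citron kinase of cytokinesis, was 4.74-fold lower (349 and 73.7), Lcmt1, a methyltransferase of protein phosphatase 2A, 4.39-fold (607 and 138) and the lipid phosphatase gene Ocrl 4.02-fold (259.6 and 64.6). Rad54b, a helicase gene of recombination, read 1215 and 303. Hnrnpu, Mdn1, Snrp1c-ps2, Cenpf, Wdr24 and Hyal2 were between 3.35-fold and 3.75-fold lower. Closest to their floors were Ocrl in type B (floor 62.4) and 1110032A03Rik, Lta, Postn (36.6) and Fam83h (36.3) in type A (floor 32.7). With a floor of 0.4 of the trimmed mean, the log2 ratios of the latter 4 were 2.23, 1.71, 1.43 and 1.29, against 2.67, 2.22, 1.88 and 1.75. Against the floor, the globin gene Hbb-b2 (32.5 and 218) was at least 6.67-fold higher, followed by Ttc16, Prss30, Agt and Pdzk1ip1 at no less than 4.01-fold. Sh3gl3 and Mast3 were at least 4.17-fold and 4.13-fold lower, and Dnajc18, BC034090 and Rab27b at least 3.42-fold.

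Gene groups were read from 34 lists, each by its counts past 2-fold and its median, beside the 3.56% higher, 3.27% lower and the median of 0.02 over all measured genes. The list of undifferentiated spermatogonia had 28 measured genes, with 2 past 2-fold toward type B, 3 toward type A and a median of -0.18. The lower ones were Gfra1, the GDNF receptor subunit, Zbtb16 and Adgra3 (109 and 54.1, 2.01-fold). Gfra1 read 176 and 58.3 on its leading probe set, of U74Bv2 (at least 2.82-fold lower), but 35.2 and 51.7 on U74Av2 (1.47-fold higher), and 136 and 61.9, at least 1.32-fold lower, on U74Cv2, so its probe sets disagree. Relative to all genes the median of the list was -0.20, and it was -0.42 without U74Cv2, where 5 of 26 genes were 2-fold lower and none higher, and -0.44 without probe sets of special endings. With a floor of 0.4 of the trimmed mean it was -0.13, the smallest drop of all settings. The summed signal of the list was 7368 in type A and 7487 in type B. Itga6, an integrin subunit used to enrich stem cells, read 124 and 63.3 (1.95-fold lower), and the RNA-binding gene Lin28a 228 and 128 (1.78-fold). Epcam was 2.66-fold higher on its leading probe set (348 and 924), but its other measured probe sets read 325 and 413, and 179 and 95.1. Sall4 was 2.61-fold higher on its leading probe set, of U74Cv2, and 2.22-fold and 4.13-fold lower on the probe sets of U74Av2 and U74Bv2, so that it has no settled direction. Of the 17 genes of differentiating spermatogonia, none was 2-fold higher and 1 was lower, the RNA-binding gene Rbm44 (362 and 158, 2.30-fold), with a median of -0.25. Stra8, the retinoic acid target that starts meiosis, read 482 and 492, Sohlh2 72.6 and 103, and Rhox13 2207 and 3307.

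Among 27 genes of GDNF and FGF signalling, none was 2-fold higher and 3 were lower on their leading probe sets, Gfra1 (with the disagreement above), Pea15a (113 and 42.2, 2.68-fold) and the kinase gene Fyn (311 and 154, 2.02-fold), with a median of -0.16. Relative to all genes that median was -0.17, and -0.05 with the mean over the probe sets of a gene. The sprouty genes Spry2 and Spry4, inhibitors of this pathway, were on the other side: Spry2 read 836 and 1562 (1.87-fold higher), and Spry4 was higher by agreeing probe sets (65.4 and 134 on U74Av2, 164 and 259 on U74Cv2). Of 28 genes of KIT, PI3K and mTOR signalling, 21 were lower in type B and 7 higher, with none 2-fold higher, 2 lower and a median of -0.25. With the mean over the probe sets of a gene in place of the leading one, the median was -0.05 and 1 gene was 2-fold lower. Beside Kit, its ligand gene Kitl read 363 and 191 (1.90-fold lower), and Ddit4, an inhibitor of mTOR, 311 and 107 (2.89-fold). Cbl, a ubiquitin ligase of receptor kinases, was 2.05-fold lower on its leading probe set (636 and 310) with its other probe sets near 1 or higher, and Mtor read 479 and 254 (1.88-fold lower) on 1 probe set and 130.3 and 176 on the other.

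The retinoid pathway had 1 of 21 genes 2-fold higher, the receptor gene Rarb (259 and 583, 2.25-fold, and at least 1.08-fold on another probe set), and 1 lower, the retinol transporter gene Stra6 (72.4 and 20.9, at least 2.21-fold), with a median of 0.02. Of 36 genes of activin, BMP and TGF-beta signalling, 1 was 2-fold higher, the BMP target Id1 (40.1 and 90.6, 2.26-fold), and 2 were lower, the repressor gene Tgif1 (359.5 and 140.5, 2.56-fold, with a second probe set near the floor) and the activin subunit gene Inhbb (149 and 59.3, 2.50-fold), with a median of -0.09. The interferon list had 31 measured genes with a median of 0.09 and Stat2 as its sole member past 2-fold on a leading probe set. Of the 31, 6 were over the floor in type B only and 1 in type A only, which fixes their direction. H2-D1, a class I histocompatibility gene, was higher by agreeing probe sets (39 and 89, and 281 and 472) with a leading one at 449.9 and 486, and H2-K1 read 591 and 868, 110.1 and 164, and 42 and 96.3. Irf9, whose product joins STAT2 in one complex, read 121 and 127, and 15 members were not measured.

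Cell cycle groups differed from each other. Of 52 measured genes of the spindle, kinetochore and division, 39 were lower in type B and 13 higher, with 4 at least 2-fold lower (7.69%), 1 higher and a median of -0.22. The lower ones were Cit, the centromere protein gene Cenpf (1128 and 319, 3.53-fold), the kinase gene Aurkb (365 and 149 on U74Cv2, 2.45-fold, and 228 and 172 on U74Av2, 1.33-fold) and Ndc80, which couples kinetochores to microtubules (661 and 306, 2.16-fold). Pttg1, the securin gene, was 2.01-fold higher on U74Cv2 and 1.08-fold on U74Av2. The 43 cyclins, CDKs and inhibitors had a median of -0.07, with Ccnt2 and the retinoblastoma gene Rb1 (107 and 51.6, 2.08-fold, and 41.3 and 36.1 on another probe set) at least 2-fold lower and none higher. The 49 replication genes had a median of 0.01, with Chaf1b, a histone chaperone subunit (53.1 and 161, 3.03-fold), higher and none lower. Ccnb2, Ccna2 and Cdk1 of the mitotic kinase differed by at most 1.06-fold, with Ccnb2 at 592 and 616 and Cdk1 at 269 and 284.

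Promoters of division genes are known for the CCAAT box, bound by the factor NF-Y, and for the cell cycle homology region, whose core is TTTGAA. In the 250 bases before the start of RefSeq genes (GRCm38.p6), on either strand, TTTGAA was found for 15 of the 46 spindle genes with an entry (32.6%) against 18.3% of all 27025 genes and 12.9% of the measured ones, and CCAAT for 30 (65.2%) against 37.5% and 40.1%. The 15 with TTTGAA had a median log2 ratio of -0.26 and the 31 without it -0.19. The 30 with CCAAT had a median of -0.25, with 25 lower in type B, and the 16 without it -0.09, with 9 lower. Genes called by agreeing probe sets did not have these motifs more often than the measured genes. Of 88 lower genes with an entry, 8 had TTTGAA (9.09%) and 29 CCAAT (33.0%). Of 49 higher genes, 6 (12.2%) and 19 (38.8%) had them. Shown are 4 of the members with both motifs that were lower in type B, to show where the motifs lie. Matches on either strand are in capitals, so that ATTGG and TTCAAA are the motifs read on the other strand. The 4 regions lie at chr7:135716380-135716629, minus strand, chr4:52438971-52439220, plus strand, chr8:22185820-22186069, minus strand and chr6:125191587-125191836, minus strand.
Mki67: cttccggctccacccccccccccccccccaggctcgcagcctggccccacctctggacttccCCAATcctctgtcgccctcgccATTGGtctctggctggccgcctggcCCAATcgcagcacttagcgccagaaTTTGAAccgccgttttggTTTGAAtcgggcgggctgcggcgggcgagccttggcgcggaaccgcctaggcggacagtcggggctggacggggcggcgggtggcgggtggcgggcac
Smc2: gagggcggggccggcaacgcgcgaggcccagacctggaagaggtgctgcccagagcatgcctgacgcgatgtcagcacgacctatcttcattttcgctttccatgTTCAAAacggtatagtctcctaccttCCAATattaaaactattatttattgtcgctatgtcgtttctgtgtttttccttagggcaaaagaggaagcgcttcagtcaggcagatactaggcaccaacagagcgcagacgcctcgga
Ckap2: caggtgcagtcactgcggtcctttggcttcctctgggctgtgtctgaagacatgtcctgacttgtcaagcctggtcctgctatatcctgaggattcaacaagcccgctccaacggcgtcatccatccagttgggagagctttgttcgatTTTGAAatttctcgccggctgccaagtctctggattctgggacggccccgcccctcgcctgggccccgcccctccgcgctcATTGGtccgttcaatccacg
Ncapd2: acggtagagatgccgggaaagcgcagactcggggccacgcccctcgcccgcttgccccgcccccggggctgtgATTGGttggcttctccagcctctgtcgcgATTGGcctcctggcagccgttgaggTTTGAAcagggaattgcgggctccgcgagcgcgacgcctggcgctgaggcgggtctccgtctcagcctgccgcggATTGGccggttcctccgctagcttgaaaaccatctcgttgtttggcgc
Mki67, the proliferation marker, read 421 and 215 (1.96-fold lower) on 1 probe set and 32.5 and 65.0, from under the floor, on the other. The condensin gene Smc2 read 283 and 155 (1.83-fold lower), the spindle gene Ckap2 316 and 212, and the condensin gene Ncapd2 306 and 210.5. A motif match is a description and not a site of binding.

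Among germ cell RNA-binding and piRNA genes a larger share was 2-fold lower than among all genes. Of 33 measured members, 23 were lower in type B and 10 higher, with 6 at least 2-fold lower (18.2%), none 2-fold higher and a median of -0.36. Without U74Cv2, 3 of 27 were 2-fold lower, and with the mean over probe sets 4 of 33. Ybx2, a binder of stored mRNA in later germ cells, read 141 and 45.5 (3.11-fold lower) and then 3829 and 4582 in pachytene spermatocytes and round spermatids. Piwil2, a PIWI protein of the piRNA pathway, read 519 and 198 (2.62-fold lower), and 932 and 106 in the later cells. Rbm44, Mov10 (278 and 129, 2.16-fold), Tdrd3 and Elavl1 completed the 6, the last of which had a further probe set that read 321 and 372. Tdrd3 was 2.18-fold lower on its leading probe set, while the others read 123 and 72.1, and 148 and 166. Mov10l1, the RNA helicase of piRNA biogenesis, read 4879 and 2828 (1.73-fold lower), and Ddx4, the germ cell helicase also called Vasa, 609.5 and 370.2 (1.65-fold) on U74Av2 and 252 and 295 on U74Cv2. Dazl read 1744 and 1741.

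DNA methylation and Polycomb genes were lower in 26 of 34, with Mbd1, a methyl-CpG binder (346 and 169.9, 2.03-fold), at least 2-fold lower, none higher and a median of -0.27. A second probe set of Mbd1 read 69.5 and 70.8. Tet2 read 191 and 101 (1.88-fold), the Polycomb gene Pcgf2 118 and 63.6 (1.85-fold) and the methyltransferase gene Ehmt2 1067 and 622 (1.72-fold). Dnmt1 read 994 and 757, Ezh2 220.2 and 234, and Dnmt3l 543 and 625. Of 22 genes of meiotic entry, recombination and synapsis, Dmc1, the meiotic recombinase (47.4 and 106, 2.23-fold), was higher and Ythdc2 (129 and 54.0, at least 2.07-fold) lower by 2-fold, with a median of -0.16. Stag3, the meiotic cohesin subunit, read 5976 and 5854, and Syce1 1396 and 1419.

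Groups of protein synthesis differed from each other. The 31 aminoacyl-tRNA synthetase genes, which charge tRNAs with amino acids, were all measured, and 25 were lower in type B, none by 2-fold, with a median of -0.30. The mitochondrial Lars2 read 198 and 105 (1.88-fold lower) on its leading probe set and 98.9 and 131 on another. Iars read 415 and 238 (1.74-fold), Rars 685 and 450 and Mars1 603 and 462. Ribosomal protein genes were higher in 28 of 35, with 3 at least 2-fold higher, 1 lower and a median of 0.41. Rps3 read 1093 and 3729 (3.41-fold) on U74Av2, but 324 and 309, and 551 and 643, on U74Cv2; Rps7 read 1691 and 3545 (2.10-fold), Rpl13a 103 and 216, and Rps13 was at least 2.71-fold lower on U74Cv2 (280.3 and 98.7) but read 20 and 42 on U74Av2. Many ribosomal protein genes have near-identical pseudogenes, and probe sets may not tell them apart. For the 55 translation factors the median was 0.05, and Eef1b2 (58.1 and 134) passed 2-fold toward type B. Proteasome genes were higher in 25 of 36 with none past 2-fold (median 0.28), and respiratory chain and ATP synthase genes in 49 of 77 with 3 at least 2-fold higher (Atp5l, Ndufa1 and Sdhb) and none lower (median 0.18). Sdhb read 364 and 733 on U74Bv2 and 372 and 491 on U74Av2.

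Chaperones (31 genes, 1 higher and none lower by 2-fold on a leading probe set, median 0.01), glycolysis (23 genes, 2 and 1, median -0.08) and sterol synthesis (21 genes, none past 2-fold, median -0.03) lay near the median of all genes. The chaperone gene past 2-fold was Dnajc3, whose 5 measured probe sets ran from a log2 ratio of -0.89 to 1.11 with a mean of 0.11. In glycolysis Hk1, the hexokinase gene, read 1079 and 2290 (2.12-fold higher) and Eno2 34.1 and 69.6, while Pdhb was 2.01-fold lower on its leading probe set and near or above 1 on others. Of 25 imprinted genes, 4 passed 2-fold toward type B and 1 toward type A, and their median was 0.35. Without probe sets of special endings 20 were measured, with 1 past 2-fold toward type B, 2 toward type A and a median of 0.11. The 5 genes past 2-fold were the growth factor gene Igf2 (825 and 1877, 2.28-fold), Dlk1 (745 and 1876, 2.52-fold, and at least 1.77-fold on U74Cv2), Kcnq1 (75.6 and 197, 2.60-fold) and Nnat (35.7 and 78.5), with Mcts2 lower (338 and 153). Igf2 and Dlk1 read 124 and 104 in pachytene spermatocytes and 78.6 and 168 in round spermatids.

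Lists of other testis cells held large shares in the higher direction. Among 30 measured genes of fibroblasts and matrix, 12 passed 2-fold toward type B (40%) and none toward type A, 25 were higher to some degree, and the median was 0.87. Their summed signal was 13707 in type A and 23809 in type B. The leading members were Lum (54.0 and 199.5, 3.69-fold), Postn (36.6 and 135, 3.68-fold), Dcn (878 and 2782, 3.17-fold), Bgn (851 and 2362, 2.77-fold, and 1.54-fold and 1.82-fold on 2 further probe sets) and S100a6 (192 and 515, 2.68-fold). Sparc, of the same list, read 1846 and 1722, and Thbs2 867 and 848 on its leading probe set but 57 and 119 on another. Of 39 collagens and laminins, some of them in the former list, 32 were higher and 6 at least 2-fold, with none 2-fold lower on a leading probe set and a median of 0.45. Col18a1 was lower by agreeing probe sets (297 and 141, and 406 and 219), while its other probe sets read 397 and 399, and 137 and 132. Of the 39, 8 were over the floor in type B only and none in type A only. Mmp2 was the member of the fibroblast list on the arrays that was not measured.

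Macrophage and leukocyte genes were higher in type B in 16 of 16 measured members, 5 of them at least 2-fold (31.2%), with a median of 0.76 and a summed signal of 1663 and 2742. Of 26 members on the arrays 10 were not measured, and 4 of the 16 were over the floor in type B only, which fixes their direction. With no floor, 8 of 26 passed 2-fold toward type B and 1 toward type A. Over all 15960 genes of that setting, 1750 and 1250 did. Lyz2 read 37.7 and 102 (2.70-fold), C1qa 92.3 and 189 (2.04-fold), and Tyrobp, Cd74 and Lyz1 were under the floor in type A and at least 2.29-fold higher in type B. The defining leukocyte genes Ptprc, Itgam, Adgre1 and Cd3e were under the floor in both cell types. Leydig cell genes had 4 of 15 at least 2-fold higher (26.7%), none lower and a median of 0.76, with 5 of the 15 over the floor in type B only and sums of 3192 and 4954: Agt (at least 4.24-fold), Vcam1 (2.25-fold), the steroidogenic gene Hsd3b1 (63.5 and 142, 2.23-fold) and Hsd11b1 (at least 2.14-fold). Star read 98.1 in type A, under the floor, and 159 in type B on U74Cv2, Insl3 read 22.9, under the floor, and 59.6, and Cyp17a1 was 1.69-fold higher.

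Peritubular myoid genes had 2 of 12 at least 2-fold higher, Cnn1 (43.5 and 109.8, 2.52-fold) and Tagln (252 and 583, 2.32-fold), and a median of 0.38, with sums of 6134 and 7783. Their contractile markers Myh11 (683 and 655) and Acta2 (1428 and 2196) were measured in both cell types. The 11 endothelial genes had none past 2-fold and a median of 0.37 (sums 1403 and 1920), and Tek, Tie1 and Vwf were under the floor in both. Of 4 erythroid genes, Hba-a1 was 2.81-fold higher (309 and 866), while Alas2 read 42.1 and 11.2 and the median was -0.12 (sums 569 and 1080). The globin gene Hbb-b2, not among these 4, was at least 6.67-fold higher (32.5 and 218). Sertoli cell genes went the other way, with 16 of 24 lower in type B, 3 at least 2-fold (Tjp1, 570 and 225; Inhbb; Wt1, 304 and 131), none higher and a median of -0.24 (sums 17254 and 14550). Kitl and Dmrt1, given above, were also members of this list. Sox9 read 775 and 734, Gata4 544 and 461 (192 and 260 on another probe set), and Clu 3236 and 2189, all over the floor in both arrays. The part of these cells in the other differences was not tested.

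Markers of later germ cells lay on both sides. Of 15 measured pachytene genes, 3 passed 2-fold toward type B (Clgn, Dnaja4 and Adam3), 1 lower (Ybx2), and the median was 0.08. Clgn read 74.5 and 202 on its leading probe set but 59.6 and 60.6 on another. The list had 8 unmeasured members, with Ldhc, Pgk2 and Ccna1 under the floor in both. Of 12 spermatid genes 1 was higher (Gapdhs, at least 2.25-fold) and 1 lower (Odf2, 105 and 41.4, with another probe set at 46.3 and 53.2), with a median of 0.19. Of the 12, 6 were over the floor in type B only and 1 in type A only, which fixes their direction. Prm1 read 2.5 and 5.7, under the floor, on the U74Av2 probe set that is far above the floor in round spermatids, and Prm2 and Smcp were under the floor in both. Prm1 counts among the 12 by its U74Cv2 probe set, at 255 and 267 in type A and type B. That probe set read no higher in pachytene spermatocytes (185) and round spermatids (206). Among 34 adhesion receptors the 3 that were 2-fold higher were Icam1 (74.4 and 271, 3.64-fold), Epcam and Vcam1 (146 and 328, with further probe sets 2.51-fold and 1.69-fold higher), the integrin gene Itgb5 was 2-fold lower on its leading probe set (248 and 113) and not on another (62.8 and 75.9), and the median was 0.07.

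Immediate early genes, transcribed within minutes of a stimulus or of tissue dissociation, were higher in 29 of 34 measured members, 3 at least 2-fold and none lower, with a median of 0.46 and summed signals of 32980 and 45276. Maff read 291 and 817 on U74Bv2 (2.81-fold higher), with a second probe set near the floor at 38 and 32.5, Klf2 46.8 and 113 (2.41-fold) and Klf4 594 and 1208 (2.04-fold). Fos read 4323 and 6363 (1.47-fold), Fosb 1703 and 2783 (1.63-fold), Dusp1 797 and 1531 (1.92-fold) and Egr1 2791 and 2767. Nr4a2 and Klf6 were higher by agreeing probe sets, the latter at 407 and 654 on U74Av2 and 292 and 594 on U74Bv2. Many genes of this group are known targets of the factor CREB through the element TGACGTCA. That element was found within 250 bases before the start for 3 of 27 members with an entry (11.1%; Btg2, Dusp1 and Maff) against 1.77% of all genes and 2.88% of the measured ones. The upstream regions of Maff, at 1 of its 3 starts (chr15:79347270-79347519, plus strand), and Dusp1 (chr17:26508473-26508722, minus strand), the higher of these 3 in type B over type A, are shown with the element in capitals.
Maff: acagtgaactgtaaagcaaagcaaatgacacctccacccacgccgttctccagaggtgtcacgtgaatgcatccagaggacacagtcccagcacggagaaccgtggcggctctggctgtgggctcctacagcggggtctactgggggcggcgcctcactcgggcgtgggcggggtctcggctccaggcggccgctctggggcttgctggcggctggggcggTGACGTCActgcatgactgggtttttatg
Dusp1: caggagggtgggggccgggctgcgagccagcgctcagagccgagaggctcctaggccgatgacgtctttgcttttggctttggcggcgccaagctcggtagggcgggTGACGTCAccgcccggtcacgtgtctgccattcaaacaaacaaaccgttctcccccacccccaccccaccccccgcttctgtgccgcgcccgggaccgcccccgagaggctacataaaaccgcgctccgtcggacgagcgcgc
The 3 genes with the element had a median log2 ratio of 0.94, from 0.19 for Btg2 to 1.49 for Maff, and the 24 without it 0.50. Of the genes called by agreeing probe sets that had an entry, 49 higher and 88 lower, none had the element.

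**Figure D4:**
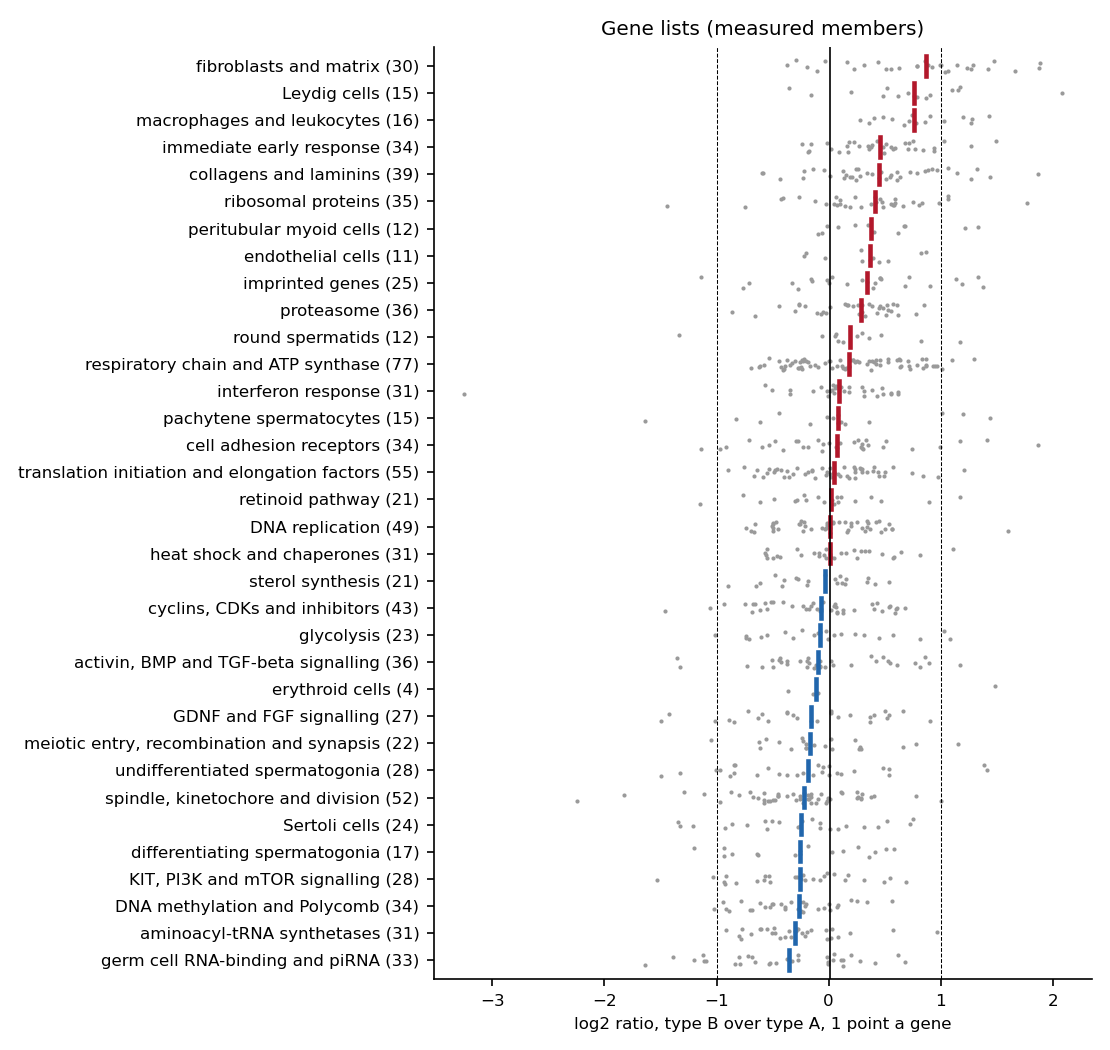
Log2 ratio of type B over type A of every measured member (grey points) of the 34 gene lists, with the number of members in brackets; thick ticks mark list medians (red above 0, blue below), the solid line the median of all measured genes and the dashed lines 2-fold, after scaling to the trimmed mean. The highest median is that of fibroblasts and matrix at 0.87 and the lowest that of germ cell RNA-binding and piRNA genes at -0.36; scaled to the spike-in controls, all genes shift by -0.77, and the fibroblast median of 0.05 alone stays above 0.

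Some properties of the arrays differed with the cell type. The trimmed means of the arrays were nearly equal, but on the type B arrays the spike-in controls were brighter by 1.76-fold on average (1.77-fold, 1.85-fold and 1.66-fold on U74Av2, U74Bv2 and U74Cv2). Scaling to them moves the median of all genes by -0.77, and the ratios above are therefore relative to all genes. Relative to the median of all genes the counts under that scaling were 500 higher and 403 lower. Of the 34 lists, 28 kept the sign of their median relative to all genes under all 8 alternative settings; the retinoid, replication, erythroid, pachytene, chaperone and translation factor lists did not. The ratio of 3' to 5' signals of the Actb control was higher in type B on all 3 designs (2.45 against 2.23, 2.49 against 2.14 and 2.41 against 2.10), as was that of Pcx (5.09 against 3.18 on U74Bv2 and 3.76 against 2.32 on U74Cv2, with a signal under the floor on U74Av2), while that of Gapdh stayed between 0.93 and 1.11. Other controls went the opposite way with both signals over the floor. The ratio for 18S RNA was lower in type B on U74Av2 (3.55 against 4.30) and U74Bv2 (4.6 against 5.74) and higher on U74Cv2 (4.54 against 2.62), and that for Tfrc was lower on U74Cv2 (5.43 against 6.15). The median of the negative controls was higher on each type B array (6.2 against 3.3, 19.8 against 15.8 and 36.7 against 18). With genes in 5 equal groups by mean signal, the median log2 ratio went from 0.14 in the lowest to -0.08 in the highest. The part of these in the low-signal groups called higher in type B, such as the macrophage genes, was not tested.

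Genes higher in type B had shorter genomic spans than genes lower in type B. The median genomic span was 22.7 kb over all measured genes, 13.2 kb over those 2-fold higher and 40.2 kb over those 2-fold lower, and 13.9 and 65.2 kb over the genes higher and lower by agreeing probe sets. With the genes in 5 equal groups by span, the median log2 ratio went from 0.19 in the shortest group to -0.11 in the longest, and the share at least 2-fold lower from 1.92% to 5.51%. Measured against genes of the same span group, the medians were 0.85 for the fibroblast list, 0.35 for immediate early genes, 0.23 for ribosomal proteins (3.67 kb), -0.26 for the spindle list, -0.28 for the aminoacyl-tRNA synthetases and -0.36 for germ cell RNA-binding and piRNA genes. Within the span groups these lists kept their direction, with the ribosomal median reduced from 0.41. The part of RNA quality in the relation of the ratio to span was not tested. Chromosomes differed little: the X had a median of -0.02 with 12 genes higher and 12 lower of 357, and autosomal medians lay between -0.06 and 0.08.

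**Figure D5:**
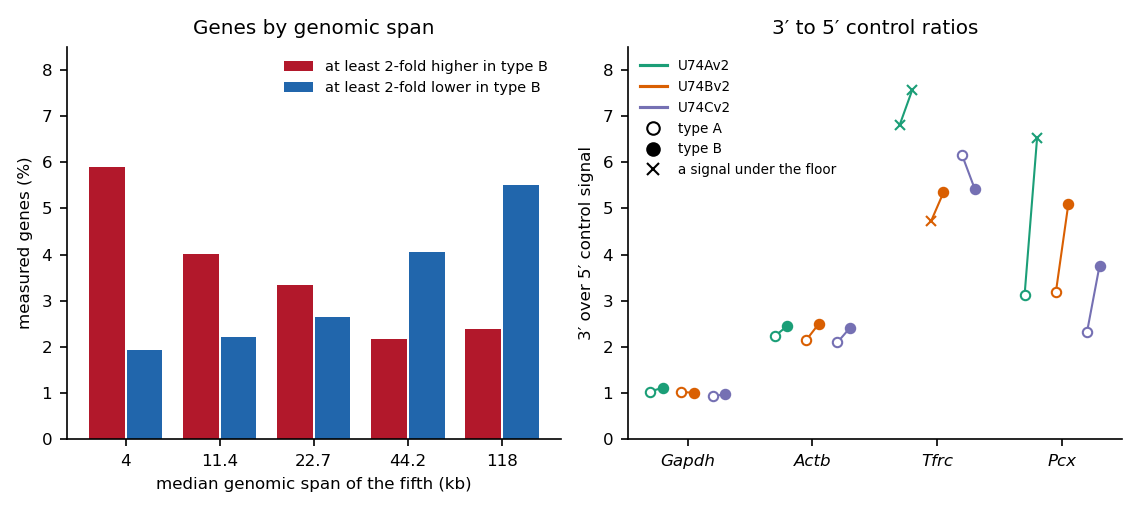
Left, share of measured genes at least 2-fold higher (red) or lower (blue) in type B in 5 equal groups by genomic span, labelled by the median span of the group in kb; right, ratio of 3' to 5' control signals on the type A (open) and type B (filled) array of each design, with crosses where a signal was under the floor. The blue share goes from 1.92% to 5.51% with span while the red share goes from 5.89% to 2.39%, and Actb and Pcx are higher in type B on every design.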

How the data were processed

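Total RNA of each cell type was hybridised to 1 array per design. The deposited intensity values are MAS5 signals, per the submitters' processing notes; software settings are not given in the sources used here. Signals of each array were scaled to a common 2% trimmed mean, set to the floor of the design (the highest negative control) and compared as log2 ratios with Python 3.11.15, numpy 2.4.6, pandas 2.3.3 and scipy 1.17.1; the scripts were tested on simulated data. With 1 array a side no test was possible; the small number of arrays sets the precision. A single gene symbol was given for 29131 of the 36701 probe sets, several for 724 and no symbol for 6846; 29044 matched RefSeq (GRCm38.p6), which also gave spans and promoters. The leading probe set stood for a gene. Named in each direction were 15 genes by agreeing probe sets with the largest mean ratio, then, among genes with 1 measured probe set and a higher signal of at least 3 floors, 10 with both signals over the floor and 5 bounds, up to 6 members of a list, and Zbtb16, Kit and Dmrt1. Other genes, such as list members with small differences, were chosen after their values were seen. The comparison and the lists were chosen with earlier results of these data known. Alternatives varied the scaling, the floor, the probe sets and the designs used.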

Additional observations from a re-analysis of the deposited data

How the results depend on the processing

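Counts depended most on the scaling and the floor. Scaled to the spike-in controls, 42 genes were at least 2-fold higher and 3987 lower, and 3 higher and 1762 lower by agreeing probe sets. With no floor these counts were 1750, 1250, 645 and 420. Without probe sets of special endings, 22 genes were higher and 68 lower by agreeing probe sets. Chosen after seeing the data, leaving out U74Cv2 left 54 lower by agreeing probe sets, and asking every probe set for 1.5-fold left 51. The other settings run moved these 4 counts by no more than 1.5 times. With each ratio taken relative to the median of all genes, 78 of 121 named genes past 2-fold stayed past it in every setting that measured them. Settings in which a gene was not measured were passed over, so that Prp2 counts by 7 and Rad54b by 6 of 8 settings. Of the 121 genes, 4 turned in sign: Sall4 (-0.61 as the mean over probe sets, -2.02 without special endings, -2.04 without U74Cv2), Tdrd3 (0.18 without special endings), Dnajc3 (-0.29 without special endings) and Pdhb (0.0095, 0.113 and 0.0925 in the order given for Sall4). The cause was not tested. Sgip1 (0.89), Stat2 (-0.91) and Zbtb16 (-0.68) were under 2-fold without special endings. The comparison with genes of like span was also chosen after seeing the data. No paired analysis was possible because each cell type had 1 array per design. Signals near the floor allow bounds and no more.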

Other observations

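Probe sets with no gene name or with several held some of the widest differences. Among 3094 such measured probe sets, 206 passed 2-fold toward type B (6.66%) and 101 toward type A (3.26%). Over all measured probe sets the shares toward type B were 4.48%, 3.39% and 3.54% on U74Av2, U74Bv2 and U74Cv2. Toward type A they were 2.70%, 3.17% and 5.28%. The widest, on U74Cv2, read 625 in type A and 7291 in type B (11.7-fold higher), and 1162 in both pachytene spermatocytes and round spermatids. On U74Av2, one such probe set read 75.4 and 750.2 and another 74.3 and 726. The widest, on U74Cv2, and the first of those on U74Av2 have special endings (_i_at and _f_at). In the lower direction, the widest, on U74Cv2, read 790.5 and 150.1 (5.27-fold), and 41.0 and 57.1 in the later cell types.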
